A study of Mus musculus with 95 samples.

Results

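The genes described here encode the proteins of the cytosolic ribosome. Members were chosen by symbol: protein-coding genes named Rpl or Rps with a number, Rplp0 to Rplp2 and Rpsa, with a mean over all libraries of at least 10 CPM (counts scaled to the library total). Of 55471 features in the count table, 85 genes carried such a symbol and 79 passed the level minimum, 47 of the large (60S) and 32 of the small (40S) subunit. Among the 79 were 4 paralogs, Rpl22l1, Rpl7l1, Rps27l and Rps27rt. The 6 genes below the minimum were Rpl10l at a mean of 0 CPM, Rpl39l at 0.139, Rpl36al at 0.530, Rpl3l at 0.548, Rps10 at 0.617 and Rpl24 at 2.21. Rpl24, Rpl36al and Rps10 share 47.0%, 24.5% and 20.6% of their exon bases with other genes on the same strand. How such reads were counted is not known, so the low values of these genes are uncertain. Just inside it were Rpl23a at 11.9 and Rpl13a at 14.3 CPM. Every one of the 79 members had enough counts to be tested in every comparison.

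A ribosome joins a small subunit, which reads the messenger RNA, to a large subunit, which forms the peptide bond. Both are built from ribosomal RNA and a fixed set of small, basic proteins, whose genes are among the most highly expressed in most cells. Many mRNAs of ribosomal proteins begin with a C followed by a run of pyrimidines, the terminal oligopyrimidine element, through which the mTOR pathway can switch their translation on or off as a group. In astrocytes and neurons, ribosomes are found in the fine processes as well as in the cell body.

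The study fractionated the nucleus accumbens of single mice in 2 ways. Every mouse, controls included, carried the transgene Tg(Aldh1l1-EGFP/Rpl10a)JD130Htz on a mixed background named B6;FVB in the labels, in which Aldh1l1 regulatory sequence, active in astrocytes, drives Rpl10a fused to green fluorescent protein. Ribosomes with the tagged protein were pulled down from tissue punches by translating ribosome affinity purification to give an immunoprecipitate (IP), and an aliquot taken before the pull-down was the input, which stands for bulk tissue RNA. Since the bait is itself the product of a member gene, counts of Rpl10a may hold reads of the transgene, which cannot be told apart here from those of the endogenous gene. Dependent mice had gone through 5 rounds of CIE, chronic intermittent ethanol exposure, within the CIE-2BC protocol. Non-dependent mice had only the 2BC drinking procedure of that protocol, and naive mice had no ethanol. Both sexes were used, and the ages of the mice are not given in the sources used here. Dependent mice numbered 18 in each fraction, 10 females and 8 males. Naive mice gave 15 IP libraries (8 from females) and 16 input libraries (8 from females). From non-dependent mice there were 13 IP and 15 input libraries, 8 of each from females. In all, 95 libraries came from 49 mice, and 46 mice gave both. The labels assign each mouse to batch C, G, I, J, K or L without saying what was shared within one. Batches C and G held 1 dependent female each, batch I held no naive mouse and batch L held no non-dependent mouse.

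Total counts were between 14314236 and 27146790 per IP library and between 12803108 and 23948193 per input library. The 12 astrocyte markers were checked against the label: their summed level was between 20116 and 27443 CPM in IP and between 2446 and 3972 CPM in input, and each of the 12 rose in IP. Neuron and oligodendrocyte markers were lower in IP but not at 0: the 12 neuron markers summed to between 1259.6 and 2293 CPM in IP against 3219 to 6116 CPM in input, and the 10 oligodendrocyte markers to between 1162 and 2828 against 2899 to 7803 CPM. Of 6 ependymal and choroid plexus markers 5 rose in IP, where their sum was between 18.9 and 149.8 CPM, against 4.84 to 68.7 CPM in input. The IP and input libraries of a mouse deviated together from their group means in 45 of the 46 mice. The exception, the non-dependent mouse K15 of batch K, had a correlation of -0.34, and results that rest on it are given with and without it. Batch was not taken out of these group means. Libraries of different mice of a batch could thus deviate together as well, and pairing rests on the labels.

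Start-site windows of Rps6, Rps27 and Rps27l are shown first, because the pyrimidine run at the start is the sequence feature for which these genes are known. They were printed because a run was found in them, and other members looked at had none. Each window is on the gene's own strand, from 10 bases before the annotated start to 19 bases after it, read from RefSeq on GRCm38.p6. Capitals mark the run nearest the start: a C that follows an A or G, lies within 5 bases of the start and is itself followed by at least 4 bases that are C or T. Pyrimidine runs farther from the start are left in lower case, and the other strand was not searched. For Rps6 the window is chr4:86857348-86857377 on the minus strand, for Rps27 chr3:90213629-90213658 on the minus strand and for Rps27l chr9:66946076-66946105 on the plus strand.
Rps6: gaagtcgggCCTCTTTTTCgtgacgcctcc
Rps27: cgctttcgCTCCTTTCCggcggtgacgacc
Rps27l: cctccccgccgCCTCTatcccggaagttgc
The run was 10 bases long in Rps6, 9 in Rps27 and 5 in its paralog Rps27l. The window of another annotated start of Rps27l, chr9:66946403-66946432, had no such run. Of the 79 members, 59 matched the RefSeq table, with 70 start sites. A C with at least 4 pyrimidines after it, whatever the base before, stood exactly at the annotated start at 13 of these 70 sites (18.6%), against 2.51% of 32851 start sites of all genes. For a run that follows an A or G and begins within 5 bases on either side of the start, the shares were 24.3% and 12.4%. No run of the latter kind was found for Rpl22, Rpl10a, Rplp0, Rpl10, Rpl7l1, Rpl22l1, Rpl41, Rps19 or Rps12, some of which have pyrimidine runs farther from the start or opening with a T, so this says only that these letters are not at the annotated position.

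The paralogs decide which members can be told apart by reads. The first 90 coding bases of Rps27 on chromosome 3 and Rps27l on chromosome 9 are printed below, from the annotated coding transcripts, with capitals in Rps27l where its base differs from that of Rps27.
Rps27: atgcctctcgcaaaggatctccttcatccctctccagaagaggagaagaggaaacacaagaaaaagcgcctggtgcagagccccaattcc
Rps27l: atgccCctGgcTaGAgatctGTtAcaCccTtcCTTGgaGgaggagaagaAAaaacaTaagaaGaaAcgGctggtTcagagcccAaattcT
Over this stretch 24 bases differed, and over the whole coding sequence of 252 bases 60 differed, an identity of 76.2%. Rps27rt, also on chromosome 9, had a coding sequence identical to that of Rps27, so values of Rps27 and Rps27rt are uncertain. Rpl22 and Rpl22l1 were 68.2% identical and Rpl7 and Rpl7l1 54.0%. Counts of 300 features named as pseudogenes of ribosomal protein genes came to 3.49% of the members' counts, but to 62.0% of those of Rpl23a, 30.6% of Rpl13a, 22.04% of Rpl36 and 16.6% of Rpl36a, so those 4 are uncertain as well. Exons of 2 members lay largely under a gene on the other strand, Rpl35 (66.2% of its exon bases) and Rpl23a (59.7%), and whether counting used strand is not given in the sources used here. Rpl13a shared 35.4% of its exon bases with other genes on its own strand.

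Levels are given below as CPM normalised by trimmed mean of M-values (TMM) over all libraries. Per kilobase of mRNA, the median member stood at 346.6 normalised CPM in IP and 400.6 in input. Rpl41, whose coding sequence of 75 bases is the shortest of the members, had the highest level per kilobase: 1631 ± 750.3 (SD, n = 46) in IP and 2168 ± 1148 (SD, n = 49) in input. Rpl13a, which encodes a large subunit protein also known from interferon-dependent translational control, had the lowest, 10.3 in IP and 17.1 in input.

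Members made up a smaller share of the counts in IP than in input. Their summed share was between 1.25% and 3.34% of a library's counts in IP, with a median of 2.01%, and between 1.84% and 4.70% in input, with a median of 2.54%. Within mice, the share was lower in IP in 44 of 46. The ranges of the fractions overlapped, also within each of batches I, J, K and L. Libraries of both fractions differed in level by batch. In input, the share was between 1.84% and 2.65% in batches I and L (n = 27) and between 2.74% and 4.70% in batches C, G, J and K (n = 22), with no overlap. In IP it was between 1.25% and 2.20% in batches I and L (n = 24) and between 1.60% and 3.34% in the others (n = 22), and the value of 1.60% belonged to mouse K15, whose input share was 3.23%.

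**Figure D1:**
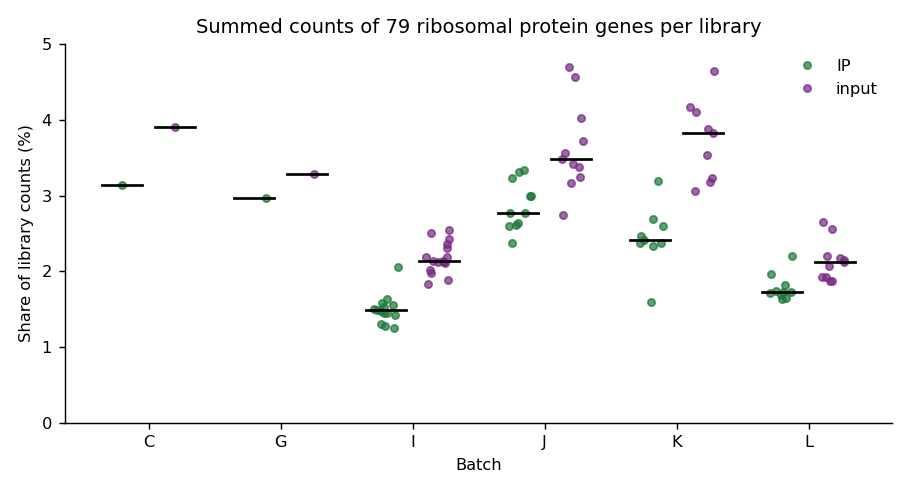
Share of each library's counts that fell on the 79 ribosomal protein genes (percent, vertical axis) by batch (horizontal axis), with IP in green and input in purple; each point is 1 library and each bar the median. Input libraries of batches I and L lie between 1.84% and 2.65%, below those of the other batches, and IP lies below input in 44 of 46 mice.

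The comparison of IP with input asks which ribosomal protein mRNAs are more or less represented on tagged ribosomes than in the tissue. In the paired test over 46 mice, 69 of 79 members differed: 62 were lower in IP and 7 higher. Over all 21743 genes tested, 45% were lower and 33.6% higher, so a difference of either sign was common. The median log2 fold change of the members was -0.26, against -0.16 over all genes. Of the 47 large subunit genes 34 fell and 6 rose, and of the 32 small subunit genes 28 fell and 1 rose. With mouse K15 left out, 68 members passed, 61 lower and 7 higher. The scaling moved the median of all genes by over 0.1, to -0.33 with library totals, under which 71 members were lower and 4 higher, but the members' median stayed 0.09 to 0.10 below that of all genes under each of the 3 scalings. The astrocyte, neuron and oligodendrocyte markers given above moved with the same comparison, and their part in it was not tested. In bulk input, fewer cells of a type and less RNA per cell cannot be told apart.

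The paralog of Rps27 rose most. Rps27l, a small subunit paralog known as a target of p53 (gene at chr9:66946086-66949516 on GRCm38), had a level of 103 to 428 normalised CPM in IP (median 194) and 45.96 to 265 in input (median 79.1). The groups overlapped as a whole, but IP was higher than input in 46 of 46 mice. Its log2 fold change was 1.06 (SE 0.05, adjusted p = 1.22e-26 by the edgeR quasi-likelihood test). Rps27 itself, on the same scale, fell by 0.23 (SE 0.06), and the identical Rps27rt by 0.16 (SE 0.06). The coding sequences printed above are those of the genes whose differences thus had opposite signs.

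Rpl22 and Rpl22l1, a large subunit protein and its paralog, differed in opposite directions. Rpl22 is known to bind RNA and to hold down its paralog's expression. Rpl22 (gene at chr4:152325742-152334071) stood at 71.5 to 233 normalised CPM in IP (median 120.2) and 50.9 to 190.0 in input (median 76.4), and was higher in IP in 44 of 46 mice, with a log2 fold change of 0.56 (SE 0.04). Rpl22l1 (gene at chr3:28805436-28807424) stood at 14.9 to 59.2 in IP (median 28.4) and 24.6 to 118 in input (median 41.2), and was higher in IP in 1 of 46 mice, with a log2 fold change of -0.75 (SE 0.06). Rpl7l1, the paralog of the large subunit gene Rpl7, was higher in IP in 46 of 46 mice, at a mean of 92.2 ± 21.7 (SD) against 59.8 ± 13.9 (SD) normalised CPM, and rose by 0.61 (SE 0.04) on the log2 scale. Rpl7 rose by 0.23 (SE 0.03), and by 0.07 when scaled by library totals. So 3 of the 4 paralogs were among the members with the largest differences, in both directions.

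Among the single-copy genes, those lowest in IP were of both subunits. Rps19, a small subunit protein mutated in Diamond-Blackfan anaemia (gene at chr7:24884371-24889806), was lower in IP in every one of the 46 mice: 226 to 764 normalised CPM (median 393) against 341 to 1686 (median 626), a log2 fold change of -0.73 (SE 0.05). Rps12, of the small subunit head, followed at -0.71 (SE 0.06) and Rpl35a, of the large subunit, at -0.59 (SE 0.06). Rpl13a had the most negative value, -0.77 (SE 0.06), but is among the uncertain members. The stalk of the large subunit, which recruits translation factors, was not uniform. Its acidic proteins fell, Rplp1 by 0.53 (SE 0.06) and Rplp2 by 0.35 (SE 0.05), while the base protein Rplp0 had a log2 fold change of -0.03 (SE 0.03), with a 95% interval of -0.09 to 0.03, and was higher in IP in 23 of 46 mice. Rplp0 passed as lower under both other scalings.

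Other members with known roles outside the ribosome or in its control were lower in IP. Rps6, the substrate of S6 kinases downstream of mTOR, was lower in each of the 46 mice, at a mean of 249 ± 41.8 (SD) against 354 ± 85.1 (SD) normalised CPM, and fell by 0.50 (SE 0.03). Rpsa, the laminin receptor precursor, fell by 0.36 (SE 0.03), and Rps27a, made as a fusion with ubiquitin, by 0.27 (SE 0.05). Rpl3, which lies near the peptidyl transferase centre, fell by 0.30 (SE 0.03) and was lower in each of the 46 mice. Its mean was 425 ± 54.2 (SD) normalised CPM in IP and 520.4 ± 75.9 (SD) in input. Higher in IP besides the genes already named were Rpl7a at 0.23 (SE 0.04), Rpl10a at 0.23 (SE 0.05) and Rpl18 at 0.11 (SE 0.05). These values depended on the scaling: with library totals they were 0.06, 0.07 and -0.05. With each batch fitted alone, Rpl18 was at -0.05 in I and -0.10 in K, and at 0.18 in J and 0.44 in L. The 10 members that did not pass were Rpl36a, Rpl34, Rpl39, Rps23, Rpl28, Rplp0, Rpl27, Rpl8, Rps4x and Rps15a.

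The tagged protein's own gene varied by batch. Rpl10a counts were higher in IP than in input in batch I, at 155 ± 15.6 (SD, n = 14) against 112 ± 11.9 (SD, n = 16) normalised CPM, and in batch L, at 156 ± 16.9 (SD, n = 10) against 108 ± 14.4 (SD, n = 11). In batch J the means were 224 ± 24.1 and 225 ± 50.4 (SD, n = 11 each), and in batch K 205 ± 27.9 and 225 ± 42.0 (SD, n = 9 each). The paired log2 fold change was 0.46 in I, 0.51 in L, 0.00 in J and -0.12 in K. IP levels moved between 155 and 224 while input levels moved between 108 and 225, so the batches differed more in input. Any reads from the transgene are part of these values.

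**Figure D2:**
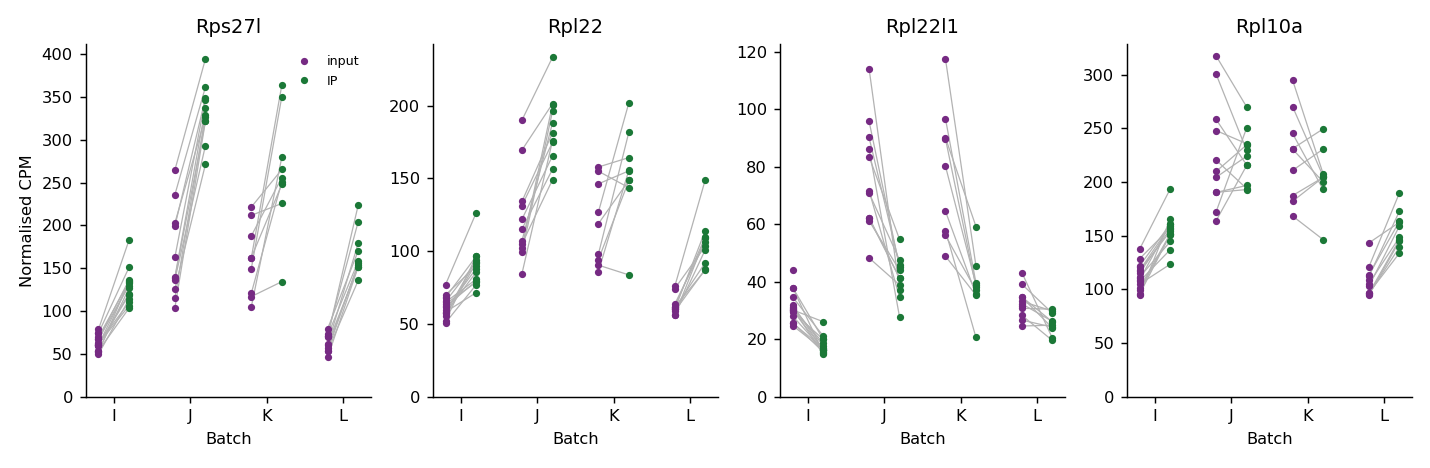
Normalised CPM (vertical axis) of Rps27l, Rpl22, Rpl22l1 and Rpl10a in input (purple) and IP (green) by batch (horizontal axis); each point is 1 library and each line joins the libraries of 1 mouse. Lines rise for Rps27l in every mouse drawn (batches C and G are not shown), and batch means of Rpl10a are higher in IP in batches I and L, at 155 against 112 and 156 against 108, but not in J and K.

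Other parts of the translation machinery were described from lists, chosen with earlier results of these data known. Single genes named from a list were picked from those with the smallest p in it, so they need not be typical of it. Of 40 translation initiation factors 25 rose and 6 fell in IP, with a median log2 fold change of 0.25 (20 and 15, with a median of 0.08, when scaled by library totals). Eif4g2, a scaffold of cap-independent initiation, rose by 1.06, and Eif4ebp1, the repressor of cap-dependent initiation that mTOR inactivates, rose by 2.01 on the log2 scale. Of 16 regulators of ribosomal protein gene expression, a list that also holds Eif4ebp1, 9 rose and 3 fell, but 7 rose and 7 fell with library totals. Of 8 elongation factors 3 rose and 5 fell, and Eef1a2, the neuronal and muscle form of the factor that delivers aminoacyl-tRNA, fell by 0.75. Of 18 other mRNAs with a terminal oligopyrimidine element, a list that shares genes with the previous ones, 4 rose and 10 fell, with a median of -0.07 (1 and 14, and -0.24, with library totals). Of 50 ribosome biogenesis factors 14 rose and 23 fell, with a median of -0.08 (5 and 34, and -0.25, with library totals). Among ribosomal proteins whose symbols fall outside the rule, Fau, a fusion of a ubiquitin-like protein with a small subunit protein, fell by 0.36, while Rack1, a scaffold on the small subunit, had -0.03. Mitochondrial ribosomal protein genes were split, with 33 of 77 higher and 26 lower and a median of 0.02, which turned to -0.03 and -0.14 under the other scalings. Nuclear-encoded respiratory chain subunits, whose mRNAs are also short and abundant, had 44 of 78 higher and 15 lower with a median of 0.14, which turned to -0.03 with library totals.

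The split between higher and lower members held in some batches and not in others. When mice of each batch were tested alone, 62 members were lower and 5 higher in batch I (14 mice), 44 lower and 5 higher in batch J (11 mice), and 67 lower and 3 higher in batch K (9 mice). In batch L (10 mice) 18 were lower and 20 higher. Of all genes, 59.5% passed in either direction in batch I, 55.5% in J, 55.8% in K and 54.3% in L. The members' median was -0.33, -0.26, -0.53 and 0.02 in I, J, K and L, that is 0.18, 0.14 and 0.40 below the median of all genes in the first 3 and 0.16 above it in L. Lower in each of the 4 batches were 16 members: Rpl3, Rpl6, Rpl10, Rpl13a, Rpl17, Rpl22l1, Rpl29, Rpl35a, Rplp1, Rps2, Rps3, Rps6, Rps12, Rps16, Rps19 and Rpsa. Higher in each of the 4 were Rpl22, Rpl7l1 and Rps27l. A further 25 members were lower in I, J and K and did not pass in L, and 11 passed in opposite directions in different batches, such as Rpl39, a very short protein of the exit tunnel, at -0.41 in K and 0.33 in L. Such counts across batches were not made for all genes.

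The difference between batches was tested directly in a fit with both libraries of the 44 mice of batches I to L. The IP to input difference varied between batches for 61 of 79 members, where 14.1% of all 21659 genes did. Without mouse K15 the count was 52. Among nuclear-encoded respiratory chain genes it was 63 of 78. The smallest adjusted p among members was that of Rpl10a, 1.90e-06 by edgeR, followed by Rpl14 at 0.000994. The 18 members that did not pass included Rpl3 (adjusted p = 0.781) and Rplp0 (0.703), Rps2 (0.636), and Rpl22 (0.185) and Rpl7l1 (0.058) among those higher in IP.

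**Figure D3:**
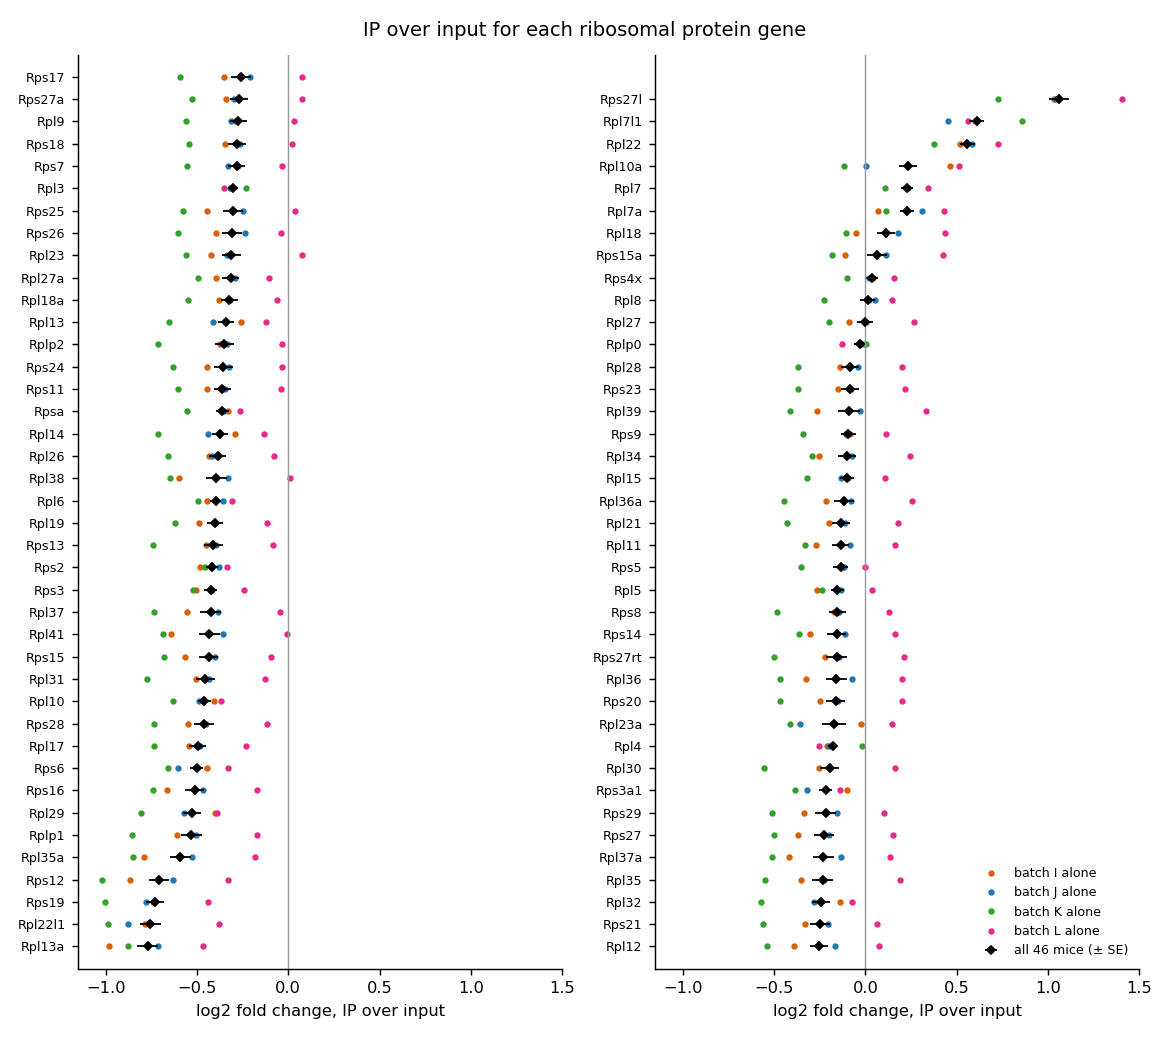
Log2 fold change of IP over input (horizontal axis) for each of the 79 members (vertical axis, ordered by the value over all mice; left panel lower, right panel higher): black diamonds are the fit over 46 mice with SE, and coloured points the fits within batches I, J, K and L. Points of batch L lie to the right of the diamond for most members and those of batch K to the left, and Rps27l, Rpl7l1 and Rpl22 are above 0 in each batch.

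The largest differences among the members were between batches. Within IP, 78 of 79 members differed between batches I, J, K and L, against 46.6% of all genes, and within input 77 of 79, against 52.1%. In IP, batch I against batch J had 76 members lower, where 21% of all genes were lower, and 1 higher, with a median log2 fold change of -1.23 against 0.06 over all genes. Batch L against J had 77 lower (16.1% of all genes) and 1 higher, with a median of -0.90. Batch I against L had 18 lower (2.61%), and batch K against J 11 lower (2.3%) and 1 higher, with medians of -0.31 and -0.28. In input, I against J had 76 lower (22.4%) and L against J 77 lower (20.5%), each with 1 higher and with medians of -1.18 and -1.25. Batch K against J in input had 0 members that passed by edgeR and 0% of all genes, and 0 members passed between I and L, where 0.0254% of all genes did; in both, 0 members had an unadjusted p under 0.05. The comparisons with batch J share its libraries.

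Small subunit gene Rps29, a short protein with a zinc-binding motif, showed the pattern in full. Its IP level was 244 ± 54.2 (SD, n = 14) normalised CPM in batch I, 354 ± 58.2 (SD, n = 10) in L, 588 ± 162 (SD, n = 9) in K and 797 ± 167 (SD, n = 11) in J. Its input level was 309 ± 45.8 (SD, n = 16) in I, 329 ± 72.4 (SD, n = 11) in L, 847 ± 267 (SD, n = 9) in K and 902 ± 302 (SD, n = 11) in J. Batches I and L lay below batch J in both fractions without overlap, and the log2 fold change of I against J was -1.70 (SE 0.13) in IP and -1.53 (SE 0.14) in input. Next lowest in IP were Rps28 at -1.63, Rpl39 and Rpl38, at -1.62 and -1.61, and Rps21 and Rpl37a, at -1.60 and -1.57.

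Rpl4, a large subunit protein whose loop lines the exit tunnel, did not follow. Its IP level was 493 ± 46.8 (SD) in I, 452 ± 36.5 (SD) in J, 496 ± 39.3 (SD) in K and 453 ± 28.1 (SD) in L, and the ranges overlapped. Its log2 fold change of I against J was 0.11 (SE 0.06, adjusted p = 0.106 by edgeR). Rpl3 likewise did not pass, at -0.06 (SE 0.07). Intermediate values were found for Rplp0 at -0.28, Rps6 at -0.39, Rpl10a at -0.55 and Rpsa at -0.63, all of which passed. Rpl7l1 was the member that rose, from 66.5 ± 15.7 (SD) normalised CPM in batch J to 112 ± 14.3 (SD) in batch I, a log2 fold change of 0.71 (SE 0.10). Taking ranges, 67 members lay wholly below batch J in batch I and 68 in batch L within IP. In input 72 lay below J in batch I and 59 in batch L. The share of all genes that lay apart in this way was not counted. These numbers are therefore not shown to be particular to the members.

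Coding length ordered these differences. Across the 79 members, the log2 fold change of batch I against J in IP had a Spearman's rho of 0.88 and a Pearson's r of 0.77 with log2 coding length. The corresponding rho was 0.81 for L against J, 0.85 for K against J and 0.89 for I against J in input. These are descriptions across genes that share the same libraries and a narrow range of lengths, and genes are not independent replicates. Over 14889 protein-coding genes the rho for I against J in IP was 0.06. Members of up to 300 coding bases (11 genes) had a median of -1.57, those of over 300 and up to 600 (45 genes) -1.28, those of over 600 and up to 1200 (21 genes) -0.81, and the 2 longer ones, Rpl3 and Rpl4, 0.03. Other protein-coding genes were ordered the same way in these 4 classes but lay higher, with medians of -0.75 (324 genes), -0.26 (1623), 0.26 (4235) and 0.36 (5438). The order did not go on beyond them: the 3190 genes of over 2400 coding bases, a class with no member, had a median of -0.04. The IP to input difference had a rho of 0.11 with coding length among the members.

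**Figure D4:**
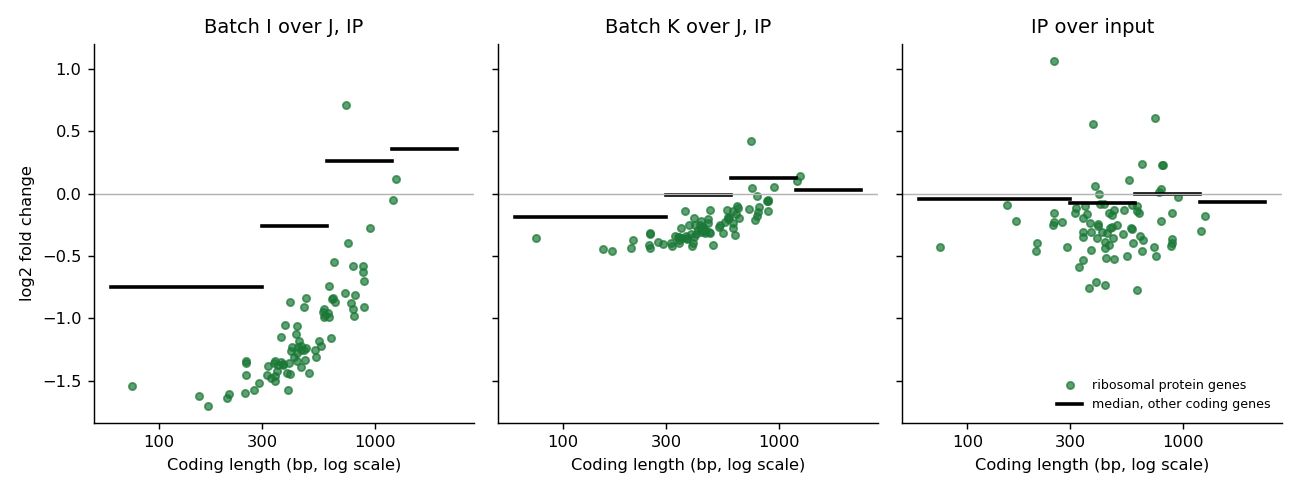
Log2 fold change (vertical axis) of each member (green points) against coding length (bases, horizontal log axis) for batch I over J in IP, batch K over J in IP, and IP over input; black bars are medians of other protein-coding genes in each length class up to 2400 bases. In the first 2 panels the shortest members are lowest (medians from -1.57 to 0.03 in batch I over J), and in the third no such order is seen.

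Other measures differed between batches as well, not all of them along the same split. Total counts per IP library were between 15612653 and 27146790 in batches I and L and between 14314236 and 24434889 in the others, with overlap. The share of counts from mitochondrially encoded transcripts in input was 6.85% to 10.2% in batches I and L and 11.04% to 17.9% in the others, again without overlap. The 50 most counted genes held 16.6% to 20.03% of counts in input of batch I and 22.96% to 31.3% in batch J. Astrocyte markers in input summed to between 3356 and 3972 CPM in batch I and between 2645 and 3156 CPM in batch J. In input of batch K they lay between 2446 and 3693 CPM and of batch L between 3099 and 3966 CPM, so the split was not kept. In IP the ranges of batches I and J overlapped, at 21329 to 27443 and 21693 to 25814 CPM. Oligodendrocyte markers in IP summed to between 1492 and 2828 CPM in batch I and between 1162 and 1831 CPM in batch J. The ranges of these markers overlapped in both fractions. The 5 oligodendrocyte precursor markers did not overlap between batches I and J in either fraction: they summed to between 93.9 and 206 CPM in I against 46.9 to 87.0 in J in IP, and to between 109 and 175 against 55.1 to 97.4 CPM in input. In IP of batch K they lay between 58.1 and 134.8 CPM, overlapping both. Of the lists, 65 of 78 respiratory chain subunits were lower in IP of batch I than J, with a median of -1.18, as were 54 of 77 mitochondrial ribosomal protein genes, with a median of -0.57. Biogenesis factors had 19 higher and 11 lower of 50 and initiation factors 14 higher and 18 lower of 40. The part of these measures in the members' batch differences was not tested.

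Treatment was compared within each fraction with batch in the model, over batches I to L (16 dependent, 15 naive and 13 non-dependent mice in IP, and 16, 16 and 15 in input). In this model 1 of 79 members differed, in IP of dependent against non-dependent mice. That count is not above the share over all genes in the same comparison, given next. Rpl10, a large subunit protein that joins the particle in its last maturation steps in the cytoplasm (gene at chrX:74270812-74273135 on GRCm38), was higher in IP of dependent than of non-dependent mice, where 1.54% of all genes differed. Its IP level was 158 to 353 normalised CPM in dependent mice (median 232), 118 to 305 in non-dependent mice (median 156) and 154 to 341 in naive mice (median 249.5), so the pooled ranges overlapped. Within batch I, however, dependent mice lay between 158 and 264 (n = 7) and non-dependent mice between 118 and 156 (n = 7), with no overlap. In batch J they lay between 317 and 349.6 (n = 4) and between 274 and 305 (n = 3), again with no overlap, and in batch K between 266 and 353 (n = 2) and between 183 and 288 (n = 3), with overlap. These ranges come from the libraries of the test itself, so they add no separate support. The log2 fold change was 0.38 (SE 0.08, adjusted p = 0.00314 by edgeR), and within batches I, J and K it was 0.44, 0.20 and 0.40. It did not pass with batches J and K alone (0.29, adjusted p = 0.482 by edgeR) or without a batch term (0.35, adjusted p = 0.603), and passed without mouse K15 (0.33, adjusted p = 0.0101).

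Rpl10 did not pass in the other treatment comparisons. Dependent against naive mice gave 0.24 (SE 0.08, adjusted p = 0.0736 by edgeR) in IP, and it passed there without mouse K15 (0.26, adjusted p = 0.0356). In input, dependent against non-dependent mice gave 0.07, with a 95% interval of -0.08 to 0.22. The test of whether the treatment difference differed between IP and input gave 0.28 for Rpl10 (SE 0.07, adjusted p = 0.130 by edgeR), so the difference is not shown to be limited to IP.

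As a group, the members differed little between dependent and non-dependent mice in IP. Positive log2 fold changes were found for 76 of 79, Rpl10 among them, with a median of 0.09 against 0.00 over all genes. An unadjusted p under 0.05 was found for 10 of the 79 and for 2369 of all 19979 genes, which is a similar share. Rplp0 at 0.21 (adjusted p = 0.0822 by edgeR) and Rps27l at 0.25 (0.181) came next after Rpl10. In non-dependent against naive mice, a comparison that shares the non-dependent libraries, 0 members passed by edgeR or DESeq2, where 0.44% of all genes did. There 3 members and 2041 of all 19979 genes had an unadjusted p under 0.05. Of the 79 members 77 were negative, with a median of -0.10. These signs did not hold in every batch: the members' mean log2 level in IP was lower in dependent than non-dependent mice by 0.07 in batch J and higher by 0.02 in batch I and by 0.37 in batch K, where mouse K15 is 1 of the 3 non-dependent mice. For non-dependent against naive mice it was higher by 0.12 in batch J and lower by 0.45 in batch K. Signs were as one-sided in comparisons where 0 members had an unadjusted p under 0.05. In input, 77 of 79 members were positive in females against males, and 73 of 79 negative in non-dependent against naive mice. Dependent against naive mice in IP had 36 positive and 43 negative members, a median of -0.01, and 0 that passed by edgeR or DESeq2, where 4.67% of all genes did. There 4 members and 3281 of all 19979 genes had an unadjusted p under 0.05. The members with the smallest p besides Rpl10 were Rpl13a at -0.31 and Rpl22l1 at -0.23. Rpl10a, the bait, had 0.14 against non-dependent and 0.12 against naive mice, with 95% intervals of 0.01 to 0.26 and -0.01 to 0.25, and passed in neither.

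In input 0 members passed for any pair of treatments by edgeR or DESeq2, and 0 had an unadjusted p under 0.05. Of all genes, 0.355% differed between dependent and non-dependent mice, 2.38% between dependent and naive mice and 0.122% between non-dependent and naive mice. The members' median log2 fold changes were 0.03, -0.02 and -0.06. Between females and males 0 members passed by edgeR or DESeq2 in IP, where 0.0501% of all genes did, or in input (0.0508%), and 0 had an unadjusted p under 0.05 in either. The largest of these female to male values was that of Rpl13a in input, 0.14, with a 95% interval of -0.01 to 0.30. Treatment differences of the members were not shown to differ between IP and input: by edgeR or limma voom 0 passed for dependent against non-dependent mice (0.115% of all genes), dependent against naive mice (0.365%) or non-dependent against naive mice (0%). In these comparisons 2, 0 and 0 members had an unadjusted p under 0.05, and 1774, 1814 and 1229 of all 21659 genes did.

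**Figure D5:**
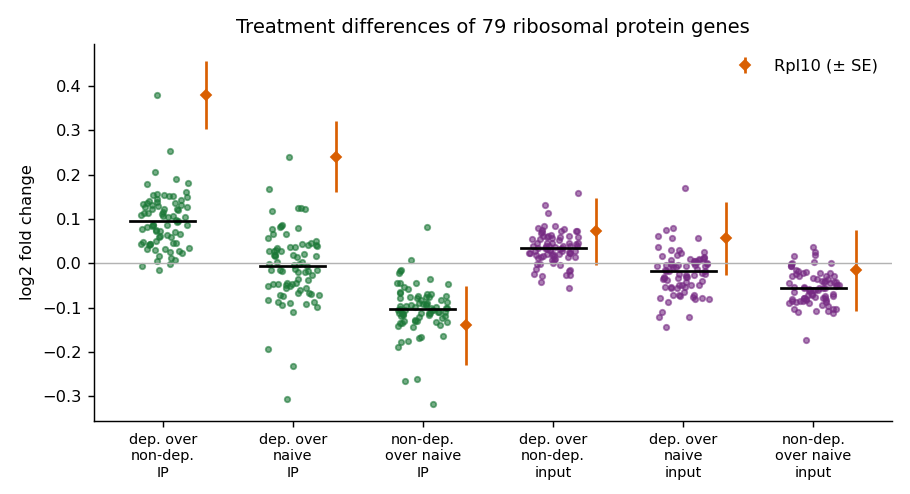
Log2 fold change (vertical axis) of the 79 members for each pair of treatments in IP (green) and input (purple); points are genes, bars medians, and orange diamonds Rpl10 with its SE. Rpl10 in dependent over non-dependent IP is at 0.38 and is the member that passed, and the medians lie between -0.10 and 0.09.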

How the data were processed

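The deposited table holds 1 column of raw read counts per library and gene, 95 in all. The submitters' processing notes name STAR 2.7.10b, Trimmomatic 0.39 and FastQC 0.11.9 as tools and GRCm38 as build. Per the labels' protocols, libraries were made with the Takara SMART-Seq PLUS kit. The counter, the annotation and the use of strand are not given in the sources used here. Gene names, positions and coding lengths came from a GENCODE annotation of GRCm38, which matched 55230 features; the other 241 held 0.00249% of counts.

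Counts were tested with edgeR 4.0.16 (R 4.3.3) by the quasi-likelihood F test with TMM scaling and filterByExpr (minimum count 10, minimum total 15). P-values were adjusted by Benjamini-Hochberg over all genes tested and called at 0.05 or less. IP and input were compared with the mouse as a block, and treatments, sexes and batches within a fraction with treatment by sex means and batch (44 IP and 47 input libraries of batches I to L). Normalised CPM are counts scaled to the TMM-adjusted library size. Each library of a fraction is a separate mouse, so p-values within a fraction measure the spread between mice. Those of IP against input measure how the paired difference spreads between mice. That fit held no batch term for the difference, which varied between batches for 61 of 79 members. Mice of a batch are thus not fully independent there, and its SE and p-values may be too small. The tests were checked on simulated counts, drawn with a fixed dispersion and without mouse or batch effects. That check therefore says nothing about the block or the batch terms. Pairing comes from the labels. The IP and input deviations of a mouse had a median correlation of 0.65 over 9507 genes, above 0.1 in 45 of 46 mice. Batch was not taken out of these deviations, so the correlation is no check of the pairing. Alternatives used DESeq2 1.42.0, limma 3.58.1 voom, other scalings, no count filter, no batch term, no block, batches J and K alone, and leaving out each batch. Fits within single batches and without mouse K15 were added after seeing the data.

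The members and lists were chosen with earlier results of these data known. The symbols Rps3a1 and Rps27rt were taken as members beyond the suffixes first listed, and Rps19bp1, a binding protein, was left out. The rule for naming members in a comparison took 15 of fixed interest, the 6 called members highest and the 6 lowest, and the 3 with the smallest p where fewer than 3 passed. The text prints values for only some of these in each comparison, so the printed genes do not follow the rule in full. Rps29, Rpl4 and others named beyond the rule were chosen after their values were seen. Start sites came from RefSeq on GRCm38.p6. The values of 1 gene of the lists are not reported here.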

Additional observations from a re-analysis of the deposited data

Results flagged for a closer look

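The 2 results given here stood out because the difference between IP and input was not the same in every batch, by a test of that difference itself in the 44 mice of batches I to L. It varied for 61 of the 79 members, where it did for 14.1% of all genes. As given above, fewer members passed without mouse K15, and most nuclear-encoded respiratory chain genes varied too, so this is not particular to the members. For Rpl10a, the gene of the tagged protein, the adjusted p of this test was 1.90e-06 by edgeR, with log2 fold changes of 0.46 in batch I, 0.51 in L, 0.00 in J and -0.12 in K.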

How the results depend on the processing

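Of the counts of members that passed, 94 were within 1.5 times of those reported under the alternatives and 7 were not. For dependent against non-dependent mice in IP the count of 1 became 2 with DESeq2 (Rplp0 added, adjusted p = 0.0393) or no count filter (Rps27l added, adjusted p = 0.0473), and 0 with batches J and K alone or no batch term. For dependent against naive mice in IP the count of 0 became 1, Rpl10, with library totals alone or without mouse K15. For IP against input, batch L alone gave 38 in place of 69, and leaving out a batch gave 54 (without batch I) to 73 (without batch L). Without the mouse as a block, a fit that ignores the pairing, 68 members passed in IP against input and 0 in each of the 3 treatment comparisons between fractions, so the replicate block changed no count by over 1.5 times. Over all 79 members, 68 log2 fold changes of IP over input were negative, against 71, 68, 73 and 38 in batches I, J, K and L. Among the members named by the rule, 5 that passed in at least 1 of the fits turned in sign: Rpl10a in batch K (-0.12), and Rps27a (0.075), Rps27 (0.15), Rpl36a (0.26) and Rpl39 (0.33) in batch L. The cause was not tested. Of the other values of members so named, 1522 kept their side of the threshold, 18 came to pass, 12 ceased to pass and 5 means moved. Within batch I naive mice, and within batch L non-dependent mice, were absent, so not every pair of treatments could be compared there. Every member was above the count minimum.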
